A study of Rattus norvegicus with 36 samples.

Results

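Red-cell genes were examined in the thyroid glands of rats that had received 131I, the iodine isotope that thyroid follicular cells take up. The genes are Slc4a1, Hba1, Hbb, Alas2, Epb42 and Ahsp. All non-control probes whose transcript accession belongs to one of these symbols were used, which gave 9 of the 30367 non-control probes and 6 genes of the 15148 with a matched symbol. The genes were picked because Slc4a1 had stood out between the 4700 kBq group and the controls, so every value of that comparison is given here as a description and not as a test.

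The samples were thyroid glands of 36 adult male Sprague Dawley rats, each gland on its own 1-colour expression array and none pooled, with 4 rats in each of 9 groups. The irradiated groups were injected in the tail vein with 131I, in 4 groups at the lower activities of 9, 88, 170 and 260 kBq and in 4 at the higher ones of 340, 760, 1300 and 4700 kBq, and the controls received a mock injection without 131I. The glands were taken 24 h after the injection from rats bled by heart puncture while anesthetised. Rats were injected in order of rising activity and the controls last, so activity and injection order cannot be told apart among the irradiated groups. The same 4 controls enter all 8 comparisons. A level is the log2 intensity of a probe minus the log2 of the 75th percentile of its array. That percentile ranged from 1564 to 4288 intensity units over the 36 arrays, and 62.8% to 91.1% of the probes of an array were well above background.

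A mature red cell has no nucleus but arrives in a tissue with leftover messenger RNA from its reticulocyte stage, so blood held in an organ adds red-cell transcripts to the organ's own RNA. Alas2 encodes the erythroid 5-aminolevulinate synthase, which starts heme synthesis. Hba1 and Hbb encode the alpha and beta chains of hemoglobin that hold the heme, and Ahsp encodes a chaperone of free alpha chains. Slc4a1 encodes band 3, the chloride and bicarbonate exchanger of the red-cell membrane, which is also made by acid-secreting cells of the kidney, and Epb42 encodes protein 4.2, which binds band 3 to the membrane skeleton. In bulk tissue, fewer cells of a type and less RNA per cell cannot be told apart.

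Promoters of the genes that moved together across rats are shown because they carry motifs of known erythroid regulation. The set of RefSeq promoters used here (build GRCr8, a later build than the one the array was designed on) held 4 of the 6 genes. Slc4a1 and Ahsp were not in this set. The sequences run 5′ to 3′ on the strand of the gene over the 250 bases before its start. Capitals mark GATAA (the core bound by GATA1), CCACACCC (a CACCC box, the kind of element bound by KLF1), CCAAT and TATAAA, searched on both strands. The alpha-globin gene is named Hba-a1 in RefSeq.
Alas2 promoter, chrX:22895200-22895449: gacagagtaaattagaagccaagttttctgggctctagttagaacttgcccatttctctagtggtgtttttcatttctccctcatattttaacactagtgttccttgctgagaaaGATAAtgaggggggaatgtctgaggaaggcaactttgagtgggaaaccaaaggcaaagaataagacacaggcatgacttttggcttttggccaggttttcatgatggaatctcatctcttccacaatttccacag
Hba1 promoter, chr10:15842581-15842830: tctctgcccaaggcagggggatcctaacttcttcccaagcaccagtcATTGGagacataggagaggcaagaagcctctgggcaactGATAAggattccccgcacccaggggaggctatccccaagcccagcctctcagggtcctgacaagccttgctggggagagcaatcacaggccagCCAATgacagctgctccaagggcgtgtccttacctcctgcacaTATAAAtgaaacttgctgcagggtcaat
Hbb promoter, chr1:167663722-167663971: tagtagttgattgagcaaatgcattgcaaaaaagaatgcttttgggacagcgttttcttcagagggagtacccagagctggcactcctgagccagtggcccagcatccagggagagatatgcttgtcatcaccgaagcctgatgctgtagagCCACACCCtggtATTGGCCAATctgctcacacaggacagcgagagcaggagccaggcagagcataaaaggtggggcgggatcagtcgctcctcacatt
The Alas2 promoter, on the plus strand, had GATAA 135 bases before the start. That of Hba1, on the minus strand, had GATAA 164 bases, CCAAT 71 bases and TATAAA 28 bases before the start, and CCAAT on the opposite strand (ATTGG) at 203 bases. That of Hbb, on the minus strand, had CCACACCC 98 bases before the start and CCAAT at 81 bases, directly preceded by ATTGG at 86 bases. The Epb42 promoter held no match to any of these letters. Of 33469 rat promoters of the same length, 23.5% held GATAA on either strand, 2.84% CCACACCC, 34% CCAAT and 12.9% TATAAA, and the CACCC box was the least common of these.

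Of the 6 genes, 5 were well above background on all 36 arrays. Intensities were 97967 to 470167 for Hba1, 59880 to 347297 for Hbb, 550 to 28818 for Alas2, 137 to 6426 for Ahsp and 42.0 to 2947 for Slc4a1, and no spot was saturated. Epb42 was not well above background on 34 of the 36 arrays (intensity 4.68 to 78.0), and no fold change is given for it. Hba1, Hbb and Ahsp had 2 probes each, and the brighter one was used. The alpha-globin genes are nearly identical copies, as are the beta-globin genes, so a globin probe may also report its paralogs.

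Slc4a1 was highest in the thyroids of the 4700 kBq group. Its level in the 4 control rats was -4.21, -4.67, -4.20 and -3.64. In the 4 rats given 4700 kBq it was -0.48, -0.26, -0.32 and -0.38. All 4 lay far above every control and within 0.21 of each other on the log2 scale, the narrowest spread of any group. The difference was 3.82 ± 0.68 (SE, n = 4 and 4), a fold of 14.1. With the slide as a block it was 3.83 and with the scan day as a block 3.88. This is the comparison on which the gene was picked, so no p is given for it.

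At the middle activities Slc4a1 was high in some rats and at control level in others. In the 260 kBq group it was -2.24, -1.96, -4.15 and -2.28, so 3 of 4 rats were above all controls. The 760 kBq group had levels of -4.33, -3.53, -1.86 and -1.73, and the 1300 kBq group -5.42, -3.76, -1.66 and -1.29. In each of these groups some rats were clearly above the controls while at least 1 lay within or below their range. The 340 kBq group had -3.72, -3.64, -4.84 and -2.63, and the 170 kBq group -3.94, -3.02, -3.80 and -4.97. With 88 kBq the levels were -4.84, -4.59, -3.83 and -3.88, and with 9 kBq -4.07, -4.13, -5.69 and -4.45, which overlapped those of the controls.

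Ordered by their mean Slc4a1 level, the groups were 4700 kBq (-0.36 ± 0.09, SD, n = 4), 260 kBq (-2.66 ± 1.0), 760 kBq (-2.86 ± 1.28), 1300 kBq (-3.03 ± 1.93), 340 kBq (-3.71 ± 0.91), 170 kBq (-3.93 ± 0.80), control (-4.18 ± 0.42), 88 kBq (-4.29 ± 0.51) and 9 kBq (-4.58 ± 0.76). Between neighbours, the ranges of the rats were separate only for 4700 and 260 kBq. The rats injected last of all, the controls, were among the lowest. The 260 kBq difference was 1.52 ± 0.68 with a 95% confidence interval from 0.12 to 2.92, but an adjusted p of 1 in limma over all probes and a two-sided exact permutation p of 0.0571, where 4 rats against 4 cannot give less than 0.0286. The 760 and 1300 kBq differences were 1.32 and 1.15 ± 0.68, also with adjusted p above 0.01.

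**Figure D1:**
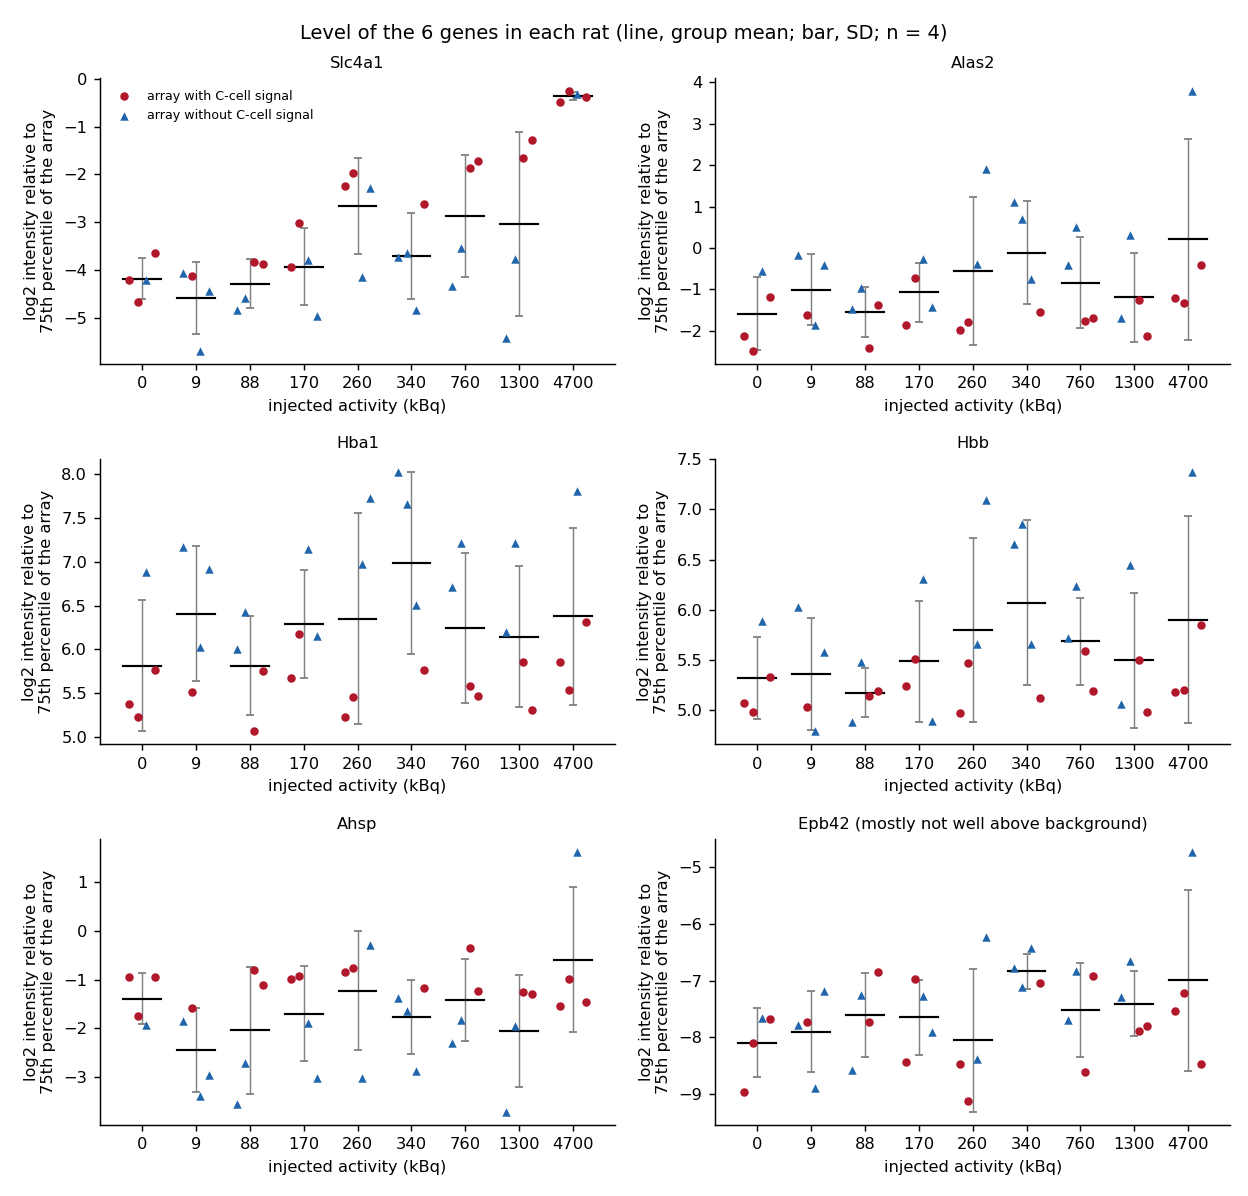
Level of each gene in each rat (y axis, log2 intensity relative to the 75th percentile of the array) by injected activity in kBq (x axis, groups in order), with points for rats, a line for the group mean and a bar for the SD, n = 4. Slc4a1 is tight and high at 4700 kBq and split between rats at 260 to 1300 kBq, while Hba1, Hbb and Alas2 vary between rats in every group.

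The globins varied from rat to rat within the groups, and none of the 7 groups below 4700 kBq passed a test against the controls. Hba1 was 5.38, 5.23, 6.89 and 5.76 in the controls and 5.85, 5.54, 7.81 and 6.31 at 4700 kBq. Hbb was 5.07, 4.98, 5.89 and 5.33 in the controls and 5.18, 5.20, 7.37 and 5.85 at 4700 kBq. On these probes, the brighter ones, only rat 3 of the 4700 kBq group exceeded all controls in either gene. On the dimmer Hba1 probe rat 4 did so too, at 3.57 against a highest control of 3.31. The size of the excess of rat 3 also depended on the probe, since over the control mean it was 1.99 for Hba1 and 2.06 for Hbb on the brighter probes and 4.42 and 3.74 on the dimmer ones, beside 3.86 for Slc4a1. The 4700 kBq difference of the dimmer probes was 1.51 for Hba1 and 0.98 for Hbb, against 0.56 and 0.58 for the brighter ones. Without rat 3 the differences of the brighter probes were 0.085 for Hba1 and 0.090 for Hbb. On the brighter probes the 340 kBq group had the highest mean of both genes, with Hba1 at 8.02, 7.65, 6.51 and 5.77 and Hbb at 6.66, 6.85, 5.66 and 5.12, but 2 of its rats lay within the controls. On the dimmer probes the 4700 kBq mean was above that at 340 kBq, at 3.99 against 3.62 for Hba1 and 2.52 against 2.26 for Hbb. Rat 3 of the 4700 kBq group carried this order, at 6.91 for Hba1 and 5.28 for Hbb. Rats 1, 2 and 4 of that group lay below both 340 kBq means. They were at 2.86, 2.62 and 3.57 for Hba1 and 1.52, 1.19 and 2.10 for Hbb. The 340 kBq differences on the brighter probes were 1.17 ± 0.60 for Hba1 and 0.75 ± 0.47 for Hbb (SE; limma adjusted p = 0.392 and 0.497; exact permutation p = 0.114 and 0.200). The 340 kBq group also had the largest shift of all probes, with a median of 0.31, and its follicular-cell genes were low (below).

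Alas2, the heme gene, followed the globins. Its level in the controls was -2.11, -2.48, -0.54 and -1.19. At 4700 kBq it was -1.21, -1.34, 3.78 and -0.40, and at 260 kBq -1.97, -1.79, -0.37 and 1.92. The single high value at 4700 kBq was again rat 3, and without a rat of either group the Alas2 difference of 1.79 ± 0.89 ranged from 0.60 to 2.31, lowest without rat 3. Among the other comparisons the largest Alas2 difference was 1.47 ± 0.89 at 340 kBq (limma adjusted p = 0.485; exact permutation p = 0.143).

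Ahsp, the alpha-chain chaperone, had levels at or below those of the controls in many irradiated rats and above all controls in some. Its level was -0.94, -1.74, -1.92 and -0.95 in the controls and -1.85, -1.59, -3.38 and -2.97 at 9 kBq. At 1300 kBq it was -3.72, -1.94, -1.26 and -1.29, and at 4700 kBq -1.53, -0.99, 1.62 and -1.46. The 260 kBq rats had -0.85, -0.76, -3.02 and -0.28, so 3 of 4 were above all controls, but only 1 of 4 on the dimmer Ahsp probe. On the brighter probe 1 rat each lay above all controls at 88, 170, 760 and 4700 kBq. The lowest difference was at 9 kBq, at -1.06 ± 0.72 (limma adjusted p = 0.999; exact permutation p = 0.143). Epb42, mostly not above background, had all 4 rats of the 340 kBq group above all controls (means -6.84 and -8.10), but only 1 of these 4 arrays and none of the control arrays measured it well above background.

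None of the 5 genes well above background passed the thresholds of the study (fold change of 1.5 or more with adjusted p below 0.01) in any of the 7 comparisons below 4700 kBq, and the share of all 30367 probes that passed was 0% in each. The rats of a group all lay above all controls for 1 of the 5 genes at 4700 kBq (Slc4a1, by which the members were picked) and for 0 of 5 in each of the other 7 groups. Over all probes the share was 1.49% at 9 kBq, 1.68% at 88 kBq, 1% at 170 kBq, 0.823% at 260 kBq, 4.06% at 340 kBq, 1.39% at 760 kBq, 1.07% at 1300 kBq and 0.715% at 4700 kBq. Outside the 4700 kBq comparison the lowest adjusted p of the 5 genes was 0.392 in limma and the lowest exact p of the 35 permutation tests was 0.0571. At an unadjusted p under 0.05 in limma, 1 of these 35 gene comparisons remained, Slc4a1 at 260 kBq, where 1.12% of all probes did so. In the other groups this share was 3.22% at 9 kBq, 3.36% at 88 kBq, 2.36% at 170 kBq, 13.7% at 340 kBq, 1.64% at 760 kBq and 4.18% at 1300 kBq, so 1 of 35 is no more than the background.

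The ratio of the membrane and heme genes to the globins was taken within each array, as the level of the gene minus the mean level of Hba1 and Hbb, and set to 0 at the control mean. Only its change has a meaning, since levels of different probes are not comparable. Relative to the globins, Slc4a1 ranged from -0.85 to 0.56 in the controls and from 1.84 to 4.11 at 4700 kBq, with a mean change of 3.25 ± 1.0 (SD, n = 4). With the dimmer globin probes the 4700 kBq range was -0.22 to 4.02 and the mean 2.58 ± 1.91, with 3 of 4 rats above all controls, since rat 3 then lay within them. At 260, 760 and 1300 kBq the mean changes were 1.01 ± 1.59, 0.92 ± 1.83 and 0.89 ± 2.31, each smaller than its own spread. At 9, 88, 170 and 340 kBq they were -0.72, -0.04, -0.07 and -0.49.

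Alas2 moved much less against the globins. Its change was between 0.10 and 0.52 in the 7 lower groups and 1.22 ± 1.42 at 4700 kBq, where 4 of 4 rats (0.42 to 3.34) lay above the highest control (0.41), the lowest of them by a small margin. The share of all probes that separate in this way relative to the globins was not counted, here or for Slc4a1, so this is a description only. Without rat 3, the highest, the Alas2 change was 0.51. With the dimmer globin probes the 4700 kBq change of Alas2 was 0.55 ± 0.50 and 1 of 4 rats lay above all controls. Ahsp had lower means relative to the globins than the controls in the 7 lower groups, from -1.38 at 9 kBq to -0.35 at 260 kBq, against a control SD of 0.94. The values within these groups divided by the tissue content of the arrays (below). At 4700 kBq it was 0.23, and -0.45 with the dimmer globin probes. None of the 21 exact permutation tests outside 4700 kBq passed (lowest p 0.0571, adjusted 0.709).

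**Figure D2:**
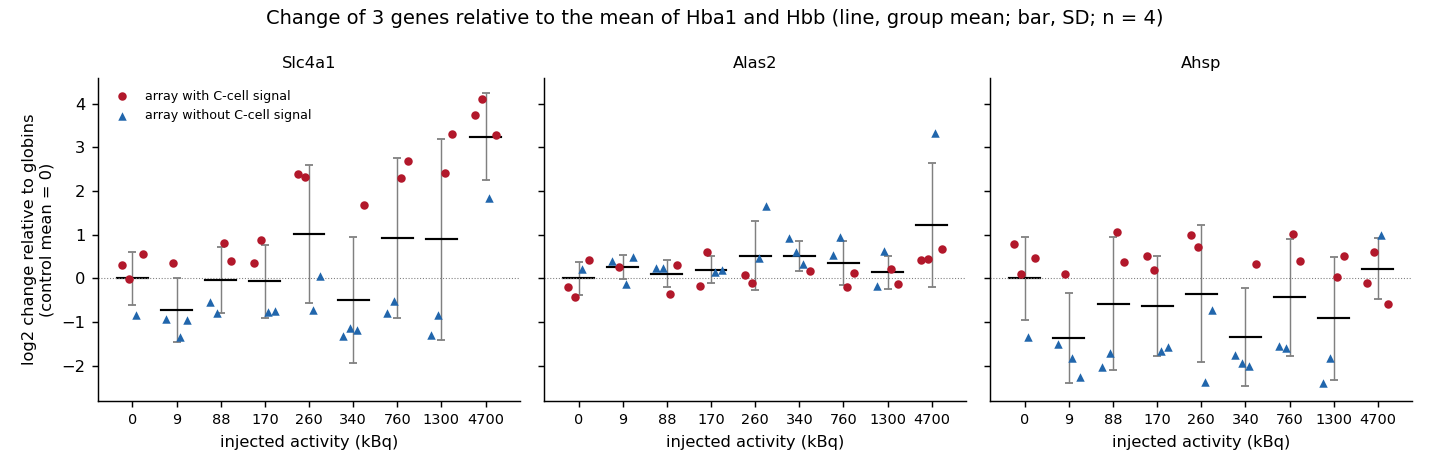
Change of Slc4a1, Alas2 and Ahsp relative to the mean of Hba1 and Hbb in the same array (y axis, log2, control mean at 0) by injected activity in kBq (x axis), with points for rats, lines for means and bars for the SD, n = 4. Slc4a1 lies 1.84 to 4.11 above the control mean at 4700 kBq, and at 260 to 1300 kBq its rats divide into high and low ones.

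The labelled tissue was then checked by its defining genes. C cells, the calcitonin-producing cells of the thyroid, are marked by Calca and 6 other listed genes, and follicular cells by Tg and 12 others. The summed C-cell level had a wide gap between -0.14 and 5.41, which placed 18 arrays on each side. The 18 arrays with C-cell signal had summed follicular levels of 7.74 to 8.57, and the 18 without it 0.68 to 7.05 (median 2.34), so arrays low in C-cell genes were also low in follicular genes. These sets were defined from the arrays and are not groups of the study.

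Every group held arrays of both kinds. The arrays with C-cell signal were control rats 1, 2 and 4, rat 2 at 9 kBq, rats 3 and 4 at 88 kBq, rats 1 and 2 at 170 kBq, rats 1 and 2 at 260 kBq, rat 4 at 340 kBq, rats 3 and 4 at 760 kBq, rats 3 and 4 at 1300 kBq, and rats 1, 2 and 4 at 4700 kBq. In the arrays without C-cell signal, markers of other cells of the neck had a higher median summed level: squamous epithelium 7.73 against -0.65, cartilage 2.39 against -2.52 and fast muscle 10.71 against 10.09. Parathyroid markers ran the other way, at -4.37 against 6.54, as did adipose tissue, at 4.41 against 5.14, and endothelium, at 2.51 against 3.32. The summed globin level was 8.12 against 7.25 and that of platelet genes 2.22 against 0.20. The Ahsp change relative to the globins divided in the same way. From 9 to 1300 kBq it was 0.02 to 1.05 with C-cell signal and -2.39 to -0.74 without it. In the controls it was 0.79, 0.11 and 0.46 with C-cell signal and -1.35 without it. The group means of this change thus also follow the mix of arrays in each group. How much of each red-cell transcript came with these other tissues was not tested.

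The relations between the red-cell genes were therefore taken within each set of arrays. After subtraction of the group means, and with groups of at least 2 arrays of a set, 16 arrays of each set could be compared. Without C-cell signal the 5 genes rose and fell together: Pearson r of Slc4a1 was 0.98 with Hbb, 0.93 with Hba1, 0.99 with Alas2 and 0.94 with Ahsp, and every one of the 10 pairs reached at least 0.87 (adjusted permutation p = 0.00285 for each pair, over 15 pairs with Epb42). Rats with more globin RNA on these arrays also had more Slc4a1.

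With C-cell signal, only the globins and Alas2 had an adjusted p under 0.05. Hba1 and Hbb had r = 0.79 (adjusted permutation p = 0.0118), Alas2 and Hba1 0.95 (0.0118), and Alas2 and Hbb 0.71 (0.0161). With quantile normalization the values were 0.74 for Hba1 with Hbb and 0.97 for Alas2 with Hba1, and their adjusted permutation p rose to 0.181 and 0.0870. Slc4a1 had r = 0.57 with Alas2, 0.41 with Ahsp, 0.36 with Hba1 and 0.28 with Hbb (adjusted permutation p = 0.516 for each), and Ahsp had r = 0.28 with Hbb and -0.01 with Hba1. The difference of these correlations between the sets was not tested.

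**Figure D3:**
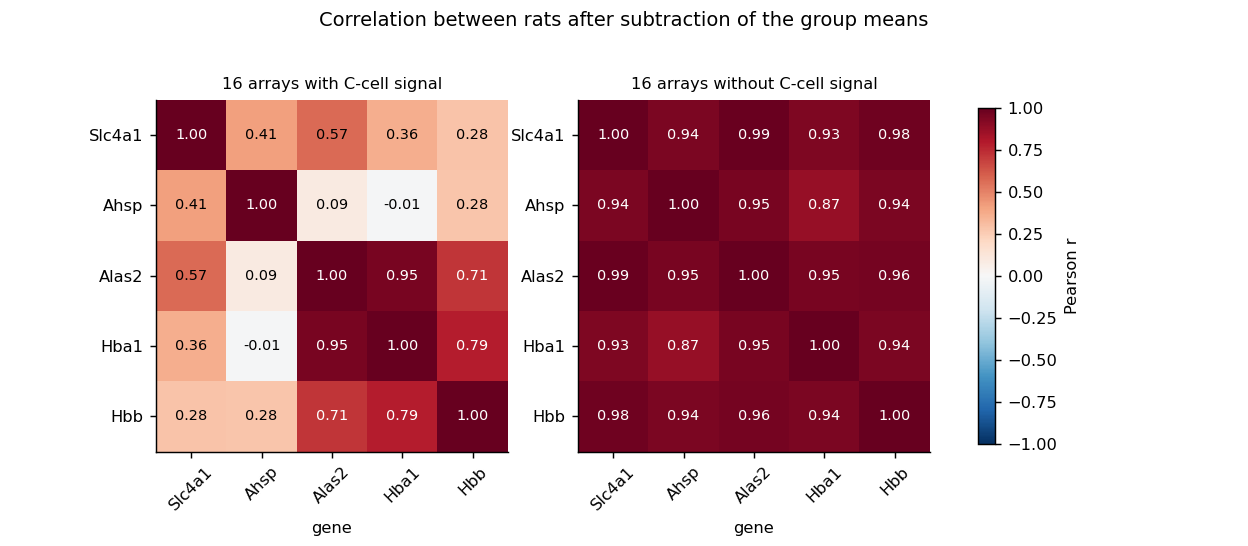
Pearson r between pairs of genes over rats after subtraction of the group means (colour and number in each cell), for 16 arrays with C-cell signal (left) and 16 without it (right). On the right every pair is at 0.87 or above, and on the left the high values are confined to Hba1, Hbb and Alas2.

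The 17 arrays without C-cell signal outside the 4700 kBq group gave a line of each gene on Hbb. The slope of Slc4a1 was 1.06 per log2 unit of Hbb, with a residual SD of 0.32. The slope was 1.19 for Ahsp (residual SD 0.35) and 1.40 for Alas2 (residual SD 0.30). On the dimmer Hbb probe the slopes were 0.86 for Slc4a1, 0.96 for Ahsp and 1.14 for Alas2, so the slopes depended on the probe while their order, with Alas2 the steepest, was the same. Alas2 of the arrays with C-cell signal lay at -1.09 to 0.08 from its line, 16 of 18 below it and 7 of 18 lower than any array of the fit (lowest residual -0.59). Ahsp of the same arrays lay 0.90 to 2.55 above its line, including its controls and its 4700 kBq arrays.

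Slc4a1 lay above its globin line in all 18 arrays with C-cell signal, by more at the higher activities. The excess was 0.86, 0.49 and 1.15 in the 3 controls, 0.98 at 9 kBq, 1.16 and 1.05 at 88 kBq, and 0.94 and 1.58 at 170 kBq. It was 2.93 and 2.68 at 260 kBq, 2.38 at 340 kBq, 2.65 and 3.21 at 760 kBq, and 2.95 and 3.86 at 1300 kBq. At 4700 kBq it was 4.47, 4.66 and 3.87, and rat 3 of that group, without C-cell signal, was 2.31 above the line. In this rat Ahsp was 2.16 and Alas2 1.97 above their lines. On lines fitted to the dimmer Hbb probe the excess of rat 3 was 1.12 for Slc4a1, 0.85 for Ahsp and 0.39 for Alas2, the last within the residuals of the fit (up to 0.46). The Slc4a1 excess of the 3 other rats of the group was then 3.80 to 4.69. All arrays with C-cell signal from 260 kBq upward were above all those up to 170 kBq. This cut was seen in the values, and it includes the controls and 4700 kBq arrays on which Slc4a1 was picked. The share of all probes that divide in this way was not counted, so the split is a description only.

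**Figure D4:**
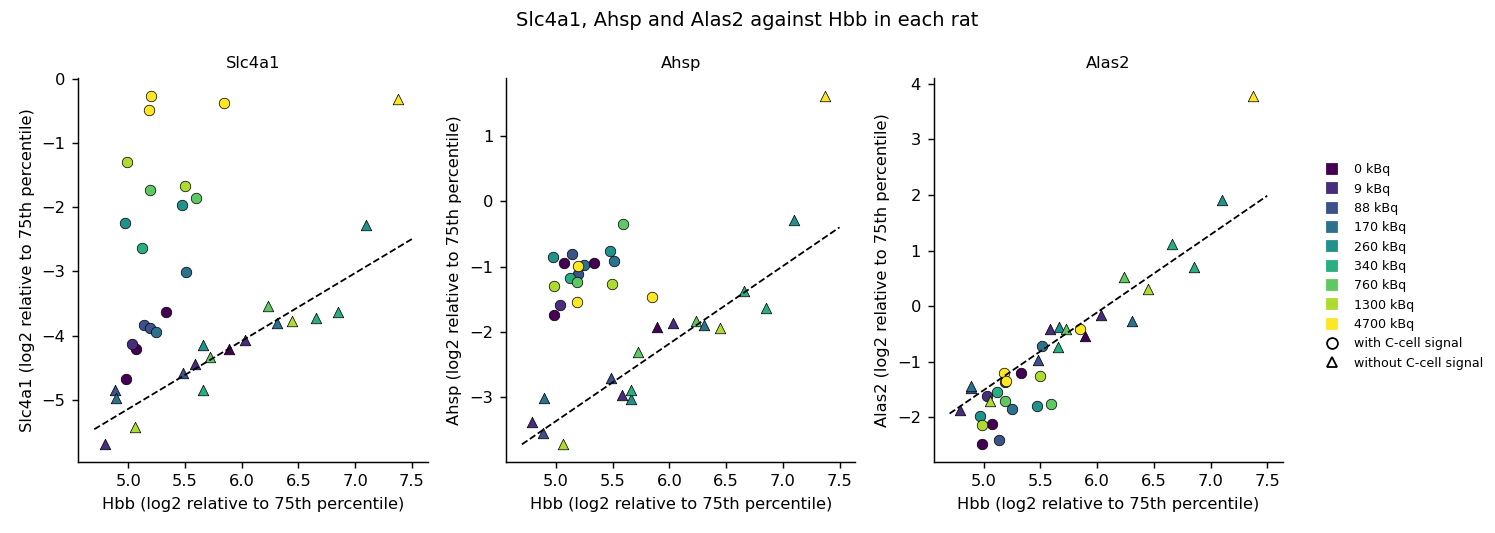
Slc4a1, Ahsp and Alas2 (y axes) against Hbb (x axis) in each rat, both as log2 intensity relative to the 75th percentile of the array, with colour for injected activity, circles for arrays with C-cell signal and triangles for those without. The dashed line was fitted to the 17 triangles outside 4700 kBq: circles of Slc4a1 leave it by 0.49 to 4.66, those of Alas2 lie between -1.09 and 0.08, mostly below it.

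The relation of Slc4a1 to activity was therefore examined outside the 4700 kBq group, within each set of arrays. The controls were also part of the comparison on which Slc4a1 was picked, so it was taken without them. Over the 12 arrays with C-cell signal from 9 to 1300 kBq, which that comparison did not use, Pearson r of Slc4a1 with log2(activity + 1 kBq) was 0.87 (permutation p = 2e-05, adjusted 0.0001) and Spearman rho 0.94 (permutation p = 4e-05, adjusted 0.0002). Without the 2 arrays farthest from the median activity r was 0.91. For Alas2, Hba1, Hbb and Ahsp r was -0.04, 0.04, 0.31 and 0.26 in the same 12 arrays (permutation p from 0.340 to 0.909). The adjustment was over these 5 relations, and the set of arrays was chosen with the values in view.

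Fitted with limma over all probes in the 12 arrays, the Slc4a1 slope was 0.46 ± 0.08 (SE) per log2 unit of activity and failed the correction, with an adjusted p of 0.164. Its p was the 11th smallest of 30367 probes, in a fit where 10.1% of the probes had an unadjusted p under 0.05 and 0.00329% an adjusted p under 0.01. Without each array in turn the slope was 0.44 to 0.63, highest without rat 2 at 9 kBq, and it was 0.51 with the slide as a block and 0.45 with the scan day as a block. In the 16 arrays without C-cell signal from 9 to 1300 kBq it was 0.10 ± 0.09 (limma adjusted p = 0.725). The difference between the slopes of these sets was 0.36 ± 0.13 over 28 arrays, with an unadjusted limma p of 0.0110 and an adjusted p of 1. In the 12 arrays Pearson r with activity was 0.40 for the summed follicular level (permutation p = 0.197) and -0.07 for the C-cell level (permutation p = 0.818). Their Spearman rho with activity was 0.17 (permutation p = 0.606) and -0.19 (permutation p = 0.544).

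As a description only, since the controls were part of the choice, r of Slc4a1 with activity was 0.82 and the slope 0.25 over the 15 arrays with the 3 controls. The slope there was 0.23 with the follicular level as a covariate and 0.24 with Hbb.

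**Figure D5:**
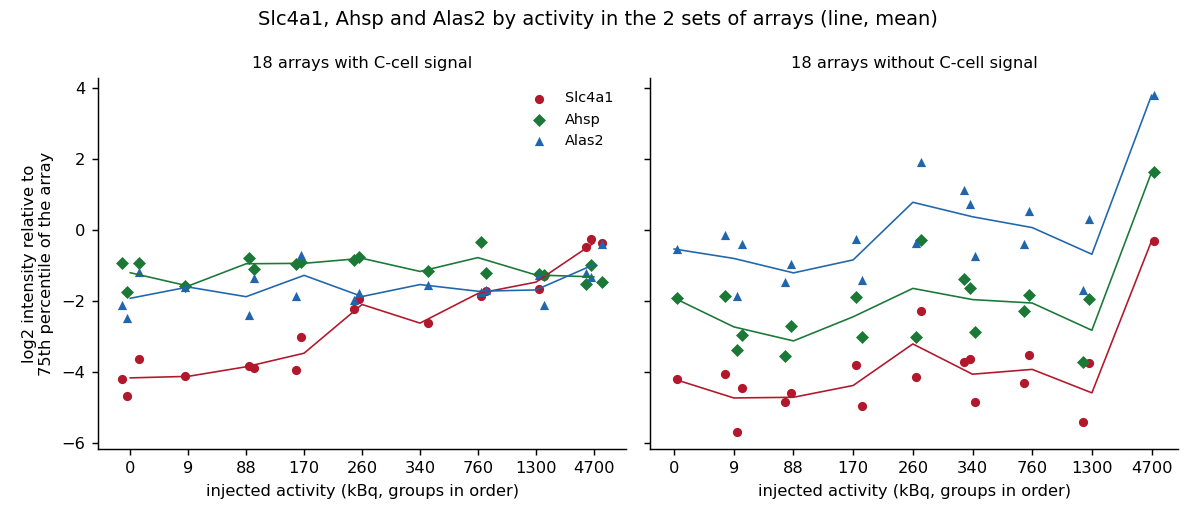
Slc4a1, Ahsp and Alas2 (y axis, log2 intensity relative to the 75th percentile of the array) by injected activity in kBq (x axis, groups in order) in the 18 arrays with C-cell signal (left) and the 18 without (right), with points for rats and lines for means. On the left Slc4a1 goes from a mean of -4.17 in the 3 controls to -0.37 in the 3 arrays at 4700 kBq while Ahsp goes from -1.21 to -1.33 and Alas2 from -1.93 to -0.98. On the right the means of the 3 genes mostly move the same way between neighbouring groups. From 9 to 88 kBq and from 340 to 760 kBq Slc4a1 rises slightly while Ahsp and Alas2 fall. The controls and the 4700 kBq group have 1 array each there.

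The other genes of the red-cell programme were read from 5 lists. Among the globin chains, 8 of 9 genes with a probe were higher at 4700 kBq than in the controls and 1 lower, with a median difference of 0.58 against 0.09 for all probes. Of 20 heme synthesis and iron supply genes 14 were higher (median 0.13), of 13 membrane and skeleton genes 10 (median 0.64), of 10 transcription factor and receptor genes 8 (median 0.26) and of 16 enzyme and maturation genes 14 (median 0.37). None of the listed genes passed the thresholds in any of the 7 comparisons below 4700 kBq. Without rat 3 of the 4700 kBq group the medians were lower, at 0.090 for globin chains (8 of 9 higher), -0.011 for heme genes (8 of 20), 0.32 for membrane genes (8 of 13), 0.053 for transcription factors (5 of 10) and 0.13 for enzymes (11 of 16). The all-probe median of 0.09 includes rat 3, and none is given without it. The share of all probes that were higher is not given either, so these counts have no background beside them.

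Within the lists the 4700 kBq differences on the log2 scale were as follows, each with the value without rat 3 after it. In the membrane list Add2, the beta subunit of adducin, was next to Slc4a1 at 1.33 (1.23), and Stom (stomatin) at -0.73 (-1.13) and Gypc (glycophorin C) at -0.58 (-1.22) were lowest. In the heme list Alas2 led at 1.79 (0.60), and the iron transporter Slc11a2 at -0.28 (-0.21) and Tmem14c, a carrier of heme precursors, at -0.17 (-0.37) were lowest. Hba-a3 at 1.41 (0.22) and the embryonic chain Hbe2 at 1.08 (0.31) led the globin chains, and the embryonic Hbz at 0.32 (0.91) was among the lowest. Among the transcription factors Ldb1 at -0.46 (-0.41) and Lmo2 at -0.25 (-0.35) were lowest. Alox15, the lipoxygenase of reticulocyte maturation, at 1.59 (0.58) and the carbonic anhydrase Car2 at 0.96 (0.43) were highest among the enzymes, and Prdx2 at -0.08 (-0.04) was among the lowest. The high values of Alas2, Hba-a3, Hbe2, Alox15 and Car2 thus fell by more than 0.5 without rat 3, and that of Add2 by less. Hemgn and Gata1 (highest of the transcription factors), Tfr2 (next to Alas2), Hbe1 (lowest globin) and Pklr (lowest enzyme) were not well above background on most arrays, with 6, 6, 13, 6 and 4 of 36 measured, and no difference is given for them.

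At 340 kBq, where the brighter globin probes were highest, the medians of the lists were 1.0 for globin chains, 0.35 for heme genes, 0.47 for membrane genes, 0.37 for transcription factors and 0.05 for enzymes, beside 0.31 for all probes. The median follicular-cell difference was -3.93 there and 0.14 at 4700 kBq, and these groups held 1 and 3 arrays with C-cell signal. The most abundant follicular gene, Tg, differed by 0.12 at 4700 kBq and Calca by 0.09. Pth, from the parathyroid, differed by 6.42 and Chad, from cartilage, by -4.13. The lists of several other tissues had medians below 0 at 4700 kBq, with 0 of 8 slow muscle genes higher (median -3.22; Tnnt1, the most abundant, -3.40), 0 of 8 of squamous epithelium (-2.84; Cnfn -1.86), 1 of 7 of cartilage (-2.56), 1 of 10 of lymphoid cells (-1.41; Cd3d -1.92), 1 of 8 of adipose tissue (-0.55; Cfd -0.61) and 0 of 11 of fast muscle (-0.38; Tnni2 -0.44). The parathyroid list had 3 of 3 higher (3.05). Platelets and neutrophils are carried by the same blood, and their most abundant genes differed by 0.42 (Pf4) and -0.36 (Lcn2), and Kdr of endothelium by 0.06. As lists, 7 of 10 platelet genes were higher (median 0.26), 7 of 12 of neutrophils (0.05) and 7 of 9 of endothelium (0.06). Of the C-cell genes 7 of 7 were higher (0.22), and of the follicular genes 9 of 13. These were descriptions of the tissue in the samples, and their part in the Slc4a1 values was not tested.

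The genes that varied with Slc4a1 across rats were counted in both sets of arrays. Without C-cell signal, r with Slc4a1 reached 0.8 for 6 of 9 globin chains, 1 of 20 heme genes, 2 of 12 other membrane genes, 3 of 10 transcription factors and 2 of 16 enzymes, against 0.73% of all probes. With C-cell signal it did so for 0 of 9, 0 of 20, 2 of 12, 0 of 10 and 1 of 16, against 3.17% of all probes, and for 4 of 13 follicular genes. In the membrane list Add2 had r = 0.87 without and 0.74 with C-cell signal, Rhd, the rhesus protein of the red-cell membrane, 0.83 and 0.81, and Tspan33 0.48 and 0.82. Among the enzymes and maturation genes Ahsp had 0.94 and 0.41, Alox15 0.89 and -0.18, and Fbxo7 -0.07 and 0.85. The 3 transcription factors were Gata1 (0.89 and 0.68), Nfe2 (0.88 and -0.19) and Hemgn (0.84 and -0.12), well above background on 6, 18 and 6 of the 36 arrays. Of these genes only Rhd reached 0.8 in both sets. These are correlations over 16 arrays of each set, which share tissue content, and they carry no test.

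Over all 36 arrays, after subtraction of group means, the genes outside the lists most like Slc4a1 were Bmp5 (r = 0.84), Sgsm2 (0.82), Mmd2 (0.81), Tpm1, Tmem241, Slc14a2, Nsmf, Pdia5, Psme1 and Tspyl2 (0.80). At 4700 kBq these 10 genes differed from the controls by -0.33 (Bmp5) to 0.88 (Pdia5), far less than Slc4a1. Most like the mean of Hba1 and Hbb were Alkal2 (0.89), Hip1 (0.87), Jam2, Tmem252, Inhba, Fgf7, Hk2, Gulp1, Glud1 and Retreg1 (0.85). The 2 lists had no gene in common. The arrays of both sets enter these correlations, so they also follow the tissue content of the arrays.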

How the data were processed

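The data were 36 one-colour Agilent arrays (1 per rat). The authors deposited Feature Extraction scanner tables, whose processed signal is a linear intensity already corrected for background. They also deposited a table of normalized intensities, which was log2-transformed and used here as an alternative only. Per the labels, Partek was named in the submitters' processing notes. Spots of a probe were averaged, control spots and outlier spots (331 to 1365 an array) were left out, and each level was the log2 intensity minus the log2 of the array's 75th percentile. Levels were fitted in limma 3.58.1 (R 4.3.3) over all 36 arrays and 30367 probes with 1 mean per group. The 8 irradiated groups were each set against the controls, with Benjamini-Hochberg adjustment within a comparison and the study's thresholds. The fit was tested on simulated data first.

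Single genes and ratios were tested by two-sided exact permutation, and correlations and relations to activity by 100000 permutations. For correlations within a set, arrays were exchanged only inside groups of 2 or 3, so few distinct orders exist. The lowest permutation p of a pair there, 0.00095, was close to the smallest this scheme can give. The members and lists were chosen with earlier results of these data known. The division by C-cell signal (in the widest gap of the summed level), the follicular covariate, the relation to activity, the dimmer globin probes and leaving out rat 3 or the controls were chosen later, with the values in view. A summed level is the log2 of the summed linear values of a list. Named genes were the 6 members, in each red-cell list the 2 highest and 2 lowest at 4700 kBq and any with adjusted p under 0.05, the most abundant gene of each other list, and the 10 genes outside the lists most correlated with Slc4a1 and with the globins. Genes with r of at least 0.8 with Slc4a1 in either set of arrays were named as well, a rule made after the values had been seen. The alternatives were other normalizations and background corrections, slide (5), scan day (2), array weights and each rat left out. The number of arrays, 4 a group, limits the precision.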

Additional observations from a re-analysis of the deposited data

Results flagged for a closer look

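Among 54 sets of 4 rats (6 genes in 9 groups), 1 held a rat that stood apart from the other 3 by Dixon's criterion, and chance gives about 1 in 20. It was the Slc4a1 level of rat 3 in the 260 kBq group, at -4.15, with the other 3 rats between -2.28 and -1.96. The array of this rat, like that of rat 4, had no C-cell signal, and its Hbb level of 5.66 was below the 7.10 of rat 4 but above those of rats 1 and 2 (4.97 and 5.47), which had C-cell signal and higher Slc4a1. Whether these values account for the level was not tested.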

How the results depend on the processing

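Of 1583 values recomputed under the alternatives, 1437 kept their direction and their side of the threshold. Some of these could not change direction. A replicate block leaves a difference as it is in this balanced design, and the mean over all probes does so for Slc4a1, which had no other probe. The count therefore does not measure robustness. The Slc4a1 difference at 4700 kBq stayed between 3.25 (normexp background) and 4.0, and between 3.66 and 4.0 without each rat in turn. No calls were counted at 4700 kBq, the comparison that chose the genes. In the other 7 comparisons 0 member genes passed the thresholds under any alternative for which they were counted. The Slc4a1 slope on activity over the 15 arrays with C-cell signal and the controls was 0.23 to 0.29 without each array, 0.21 with normexp background and 0.46 without the controls. Same-numbered rats of different groups did not deviate together (mean r -0.020 over 144 pairs), so the numbers pair nothing. With a replicate block the Slc4a1 difference at 4700 kBq was 3.82, as the balanced design requires, and 0 member genes passed in the other 7 comparisons.

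The values that changed direction were mostly near 0. With the follicular level as a covariate, the difference was Slc4a1 0.34 at 9 kBq and 0.12 at 88 kBq, Alas2 -0.42 at 9 kBq and -0.28 at 88 kBq and -0.13 at 1300 kBq, Hba1 -0.22 at 9 kBq and -0.25 at 88 kBq and -0.097 at 1300 kBq, Hbb -0.41 at 9 kBq and -0.018 at 170 kBq and -0.056 at 1300 kBq, Ahsp 0.10 at 340 kBq and 0.071 at 760 kBq. With the slide as a block, the difference was Slc4a1 0.24 at 88 kBq, Alas2 -0.050 at 88 kBq, Hba1 -0.29 at 88 kBq, Hbb -0.0089 at 9 kBq, Ahsp 0.29 at 760 kBq, and the change relative to the globins was Slc4a1 0.54 at 88 kBq, Ahsp 0.17 at 88 kBq and 0.23 at 260 kBq and 0.013 at 760 kBq. With the scan day as a block, the difference was Slc4a1 0.064 at 88 kBq, Alas2 -0.17 at 88 kBq, Hba1 -0.29 at 88 kBq, Hbb -0.0030 at 9 kBq, Ahsp 0.16 at 760 kBq. With array weights, the difference was Slc4a1 0.11 at 88 kBq, Hbb 0.0024 at 88 kBq, Ahsp -0.26 at 260 kBq and -0.081 at 4700 kBq. With quantile normalization, the difference was Alas2 -0.028 at 88 kBq, Hbb -0.12 at 9 kBq and -0.031 at 1300 kBq, and the change relative to the globins was Slc4a1 0.025 at 170 kBq. With the deposited normalized table, the difference was Alas2 -0.027 at 88 kBq, Hbb -0.11 at 9 kBq and -0.029 at 1300 kBq, and the change relative to the globins was Slc4a1 0.021 at 170 kBq. With centring on the array median, the difference was Hba1 -0.025 at 88 kBq. With normexp background, the difference was Hba1 -0.037 at 88 kBq, and the change relative to the globins was Slc4a1 0.044 at 88 kBq. With the mean over all probes of a gene, the difference was Hba1 -0.053 at 88 kBq, Hbb -0.040 at 9 kBq, and the change relative to the globins was Slc4a1 0.028 at 88 kBq, Ahsp -0.12 at 4700 kBq. Relative to Hbb alone, the change relative to the globins was Slc4a1 0.037 at 88 kBq and 0.078 at 170 kBq. With the dimmer globin probes, the change relative to the globins was Slc4a1 0.092 at 88 kBq, Ahsp -0.45 at 4700 kBq. Relative to Hba1 alone, the change relative to the globins was Alas2 -0.018 at 9 kBq. Without each rat in turn, differences that changed sign were Slc4a1 -0.27 to 0.078 at 88 kBq, Slc4a1 -0.055 to 0.60 at 170 kBq, Alas2 -0.27 to 0.38 at 88 kBq, Alas2 -0.11 to 0.74 at 1300 kBq, Hba1 -0.20 to 0.36 at 88 kBq, Hba1 -0.028 to 0.69 at 1300 kBq, Hbb -0.18 to 0.23 at 9 kBq, Hbb -0.26 to 0.046 at 88 kBq, Hbb -0.10 to 0.37 at 170 kBq, Hbb -0.14 to 0.37 at 1300 kBq, Ahsp -0.57 to 0.13 at 170 kBq, Ahsp -0.16 to 0.76 at 260 kBq, Ahsp -0.40 to 0.26 at 760 kBq. Changes relative to the globins that did so were Slc4a1 -0.32 to 0.22 at 88 kBq, Slc4a1 -0.39 to 0.16 at 170 kBq, Alas2 -0.042 to 0.26 at 88 kBq, Alas2 -0.029 to 0.27 at 1300 kBq, Ahsp -0.80 to 0.33 at 260 kBq, Ahsp -0.23 to 0.49 at 4700 kBq. The cause was not tested.

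Over all 36 arrays, r was 0.74 for Slc4a1 and Ahsp, -0.0047 for Slc4a1 and Hbb, 0.89 for Hba1 and Hbb and 0.93 for Alas2 and Hba1. For Slc4a1 and Ahsp r was 0.51, 0.61, 0.91 and 0.66 within slides 1, 3, 4 and 5. With C-cell signal it was 0.41 as reported, 0.45 with quantile normalization, 0.46 with normexp, 0.44 with the deposited table and 0.40 without 4700 kBq. None of these passed the threshold. For Slc4a1 and Hbb without C-cell signal r was 0.98 as reported (no 4700 kBq array is among the 16), 0.90 with quantile normalization and the deposited table, 0.95 with normexp and 0.98 with the dimmer globin probes, all past it. Hba1 and Hbb missed the threshold within slides 2 (0.70) and 4 (0.73), and with C-cell signal under quantile normalization (0.74) and in the deposited table (0.74). Alas2 and Hba1 missed it within slide 4 (0.94) and with C-cell signal under quantile normalization and in the deposited table (0.97 in both). Alas2 and Hbb also missed it under 3 alternatives. Fewer arrays entered within a slide; the arrays were the same under quantile normalization and in the deposited table, and the cause there was not tested. The dimmest of the 5 genes, Slc4a1, was still well above background on all 36 arrays, while Epb42 was so on 2 and its values have no firm order.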
